A study of Mus musculus with 8 samples.

Results

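The receptors for serotonin, dopamine, noradrenaline and adrenaline, histamine, and the muscarinic receptors for acetylcholine were followed across 4 hypothalamic nuclei of the mouse. The genes were listed by family (36 genes), and every probe whose RefSeq accession belongs to a listed gene was kept. The array carried 45 probes for 35 of them, among 20284 genes named through accessions. All 14 serotonin, 5 dopamine, 8 adrenergic and 5 muscarinic receptor genes listed were matched, and 3 of 4 histamine receptor genes. *Hrh2* was not matched to a named accession, and its signal is not analysed here. The arcuate nucleus (Arc), the ventromedial hypothalamus (VMH), the dorsomedial hypothalamus (DMH) and the lateral hypothalamus (LH) were cut out by laser microdissection from female C57BL/6J mice (C57BL/6 in the labels) aged 3 months. Strain, sex and age were shared by all groups, and the labels give no genotype, mutant allele or treatment. Each nucleus was measured on 2 one-color arrays (Arc1 and Arc2, and so on), 8 in all. The methods give 2 mice as the source, and which array holds which mouse is not given in the sources used here, so that the p-values measure the spread between these samples, which may in part be technical. A sample held RNA from all cell types of the excised tissue, amplified before labeling.

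All of these receptors except *Htr3a* and *Htr3b*, which are subunits of a cation channel, signal through G proteins. Receptors coupled to Gs raise cyclic AMP, those coupled to Gi and Go lower it, and those coupled to Gq activate phospholipase C. In the hypothalamus they receive serotonin from the raphe nuclei, noradrenaline from the brainstem, histamine from the tuberomammillary nucleus and dopamine partly from neurons of the Arc itself, and they are known for their parts in feeding, arousal and the release of pituitary hormones.

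The files hold no probe sequences, so the promoters of 4 receptors whose levels differed among the nuclei are shown in their place. Each stretch spans 250 bases before the annotated start of the gene in lower case and 50 bases from that start in capitals (RefSeq, GRCm38.p6). *Htr2a* (chr14:74640624-74640923, plus strand) and *Chrm5* (chr2:112480768-112481067, minus strand) had their highest signals in the VMH. *Htr2c* (chrX:146962263-146962562, plus strand) had its highest signals in the DMH or the LH, depending on the probe, and *Drd2* (chr9:49340153-49340452, plus strand) in the LH.
Htr2a: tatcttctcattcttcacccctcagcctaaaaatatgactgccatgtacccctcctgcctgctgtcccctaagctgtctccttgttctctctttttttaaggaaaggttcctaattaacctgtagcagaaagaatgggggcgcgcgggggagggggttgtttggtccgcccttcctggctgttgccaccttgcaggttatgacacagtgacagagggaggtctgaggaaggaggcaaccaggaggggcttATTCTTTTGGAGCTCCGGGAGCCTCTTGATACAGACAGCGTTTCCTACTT
Chrm5: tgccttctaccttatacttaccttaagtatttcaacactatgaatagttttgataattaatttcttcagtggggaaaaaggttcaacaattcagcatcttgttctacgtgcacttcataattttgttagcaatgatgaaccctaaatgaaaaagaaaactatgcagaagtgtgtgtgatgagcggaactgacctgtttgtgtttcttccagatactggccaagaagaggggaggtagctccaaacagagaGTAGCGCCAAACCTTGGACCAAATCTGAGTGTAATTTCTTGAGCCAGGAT
Htr2c: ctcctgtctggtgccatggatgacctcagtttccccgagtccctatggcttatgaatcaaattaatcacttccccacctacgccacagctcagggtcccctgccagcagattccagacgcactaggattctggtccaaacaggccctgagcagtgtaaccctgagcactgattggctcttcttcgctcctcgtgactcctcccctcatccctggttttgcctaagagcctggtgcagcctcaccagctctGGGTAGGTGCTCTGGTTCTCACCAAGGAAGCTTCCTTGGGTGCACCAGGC
Drd2: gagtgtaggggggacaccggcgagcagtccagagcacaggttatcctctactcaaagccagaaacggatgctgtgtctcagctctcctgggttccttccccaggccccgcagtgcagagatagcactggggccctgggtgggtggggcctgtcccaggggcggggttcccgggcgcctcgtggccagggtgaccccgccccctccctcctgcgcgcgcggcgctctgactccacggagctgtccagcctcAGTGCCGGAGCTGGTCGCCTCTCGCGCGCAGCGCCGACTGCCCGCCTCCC
The *Drd2* promoter held 23 CpG dinucleotides, against 6 for *Htr2a*, 5 for *Htr2c* and 3 for *Chrm5*. The table held 36 promoters for 28 of the receptor genes, *Hrh2* among them. Their median was 14.5 CpG dinucleotides, against a median of 7 over all 32851 promoters of the same length. The letters TATAAA, read on both strands, stood in 1 of the 36 (2.78%), that of *Adra2a*, and in 13.6% of all promoters. The letters CAAGGTCA, the site bound by factors of the *Nr5a1* type, stood in 0 of the 36 and in 1.56% of all promoters. These are matches of letters within a short window and say nothing about binding.

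The excised pieces of the Arc and the VMH carried textbook genes of these nuclei, while those of the LH were shared with the DMH and none was listed for the DMH. *Agrp*, *Npy*, *Pomc* and *Ghrh* were highest in the Arc, and *Nr5a1* and *Fezf1* in the VMH. *Hcrt*, a gene of the LH, reached a signal of 105971 and 116750.0 on the LH arrays, but also 55939.9 and 51283 on those of the DMH. *Pmch*, also of the LH, gave 17650.1 and 17005 in the LH, 16253 and 11631 in the DMH and 3938 and 3139.7 in the VMH, with neither Arc array well above background. Neither gene passed the test between the DMH and the LH (adjusted p = 0.29 and 0.561). The LH stood apart most in its oligodendrocyte genes, with a summed signal of 8 oligodendrocyte genes (in these lists each gene is taken by its brightest probe) of 109885 and 119244, against 11709 to 40740 on the other arrays, and all 8 of these genes differed among the nuclei. Endothelial genes summed to 15605 and 20473 in the LH and to 8963 to 13401 elsewhere, and 1 of 8 passed the F-test, namely *Flt1*, with the LH above the Arc 3.47-fold (log2 difference 1.80, SE 0.28, limma adjusted p = 0.0113). Astrocyte genes summed to 145272 and 151042 in the LH and to 85666 to 118940 elsewhere (3 of 8 genes differed). *Gfap* of that list was higher in the Arc than in the VMH 3.88-fold (log2 difference 1.95, SE 0.29, limma adjusted p = 0.0124) on A_55_P2157250. On A_52_P52303 it was higher there 5.20-fold (log2 difference 2.38, SE 0.38, limma adjusted p = 0.0152). Genes of ependymal cells and tanycytes summed to 7187 and 7219 in the Arc and to 2952 to 3812 elsewhere (3 of 8, with *Foxj1*, *Tmem212* and *Dnah11* well above background on no array). Neuronal genes were lowest in the Arc for 7 of 8. Without *Stmn2*, which lacked a value on LH1, they summed to 153387 and 157614 in the Arc, 167794 and 170181 in the DMH, 230091 and 210639 in the VMH and 224313 and 194787 in the LH. *Rbfox3* and *Nefl* passed the F-test, with the VMH above the Arc 3.68-fold (log2 difference 1.88, SE 0.25, limma adjusted p = 0.00795) and 4.70-fold (log2 difference 2.23, SE 0.32, limma adjusted p = 0.0102). None of 8 microglial genes differed. The replicate arrays correlated at 0.982 (Arc), 0.978 (VMH), 0.972 (DMH) and 0.938 (LH) over probes on the log2 scale, so the LH pair was the least alike. Fewer cells of a type and less RNA per cell cannot be told apart in such tissue samples.

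The receptors ranged from well above background everywhere to not measured at all. The scanning software marks a spot as well above background or not, and that mark is used throughout. Of the 45 receptor probes, 24 (18 genes) were well above background on all 8 arrays, which is 53.3%, against 40.6% of all probes. The filter on dim probes let 29 (22 genes) into the test, namely each probe that was above background in this sense in duplicate in 1 nucleus or more, or 64.4% against 51.9% of all probes. *Drd1*, *Drd4*, *Drd5*, *Adrb3*, *Htr2b*, *Htr5a*, *Htr5b* and *Chrm4* were well above background on no array. Because a dim receptor could enter the test only through a nucleus where it was bright, the probes measured on all 8 arrays are also given by themselves below.

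The 4 nuclei differed in 13 of the 29 receptor probes tested (44.8%, 11 genes) by limma's moderated F-test, adjusted over all 28894 probes tested, of which 8.34% passed an adjusted p of 0.05. Among the 24 receptor probes on all 8 arrays, 9 passed, against 6.53% of all such probes. The 13 probes were highest in the VMH in 6 cases, in the LH in 5, in the DMH in 2 and in the Arc in 0. They were lowest in the Arc in 8, among them the 3 probes of *Htr2c*. How often each nucleus was highest or lowest among all probes that passed was not counted, so nothing is read from these tallies. The count of 13 includes *Chrm5*, whose difference was fixed by the filter, as described below. The count was 6 without Arc1, VMH1 or VMH2, and 7 without DMH1 or DMH2. It was 9 without Arc2 and 17 without LH1 or LH2. The sources of the differences were *Htr1d*, *Htr2a*, *Htr2c* (3 probes), *Htr4*, *Drd2*, *Adra2a*, *Adra2c*, *Hrh1*, *Hrh3*, *Chrm2* and *Chrm5*, and 3 further genes (*Htr1a*, *Htr1b* and *Htr7*) differed between a pair of nuclei. All values below are processed signals of a probe scaled so that the 75th percentile of every array equals the geometric mean of these percentiles, and they compare arrays for a probe, never one probe with another. A log2 difference is the difference between the means of the log2 signals of 2 nuclei, with its standard error (SE). Leaving out an array leaves its nucleus with 1 array, which is then taken to vary like the others.

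**Figure D1:**
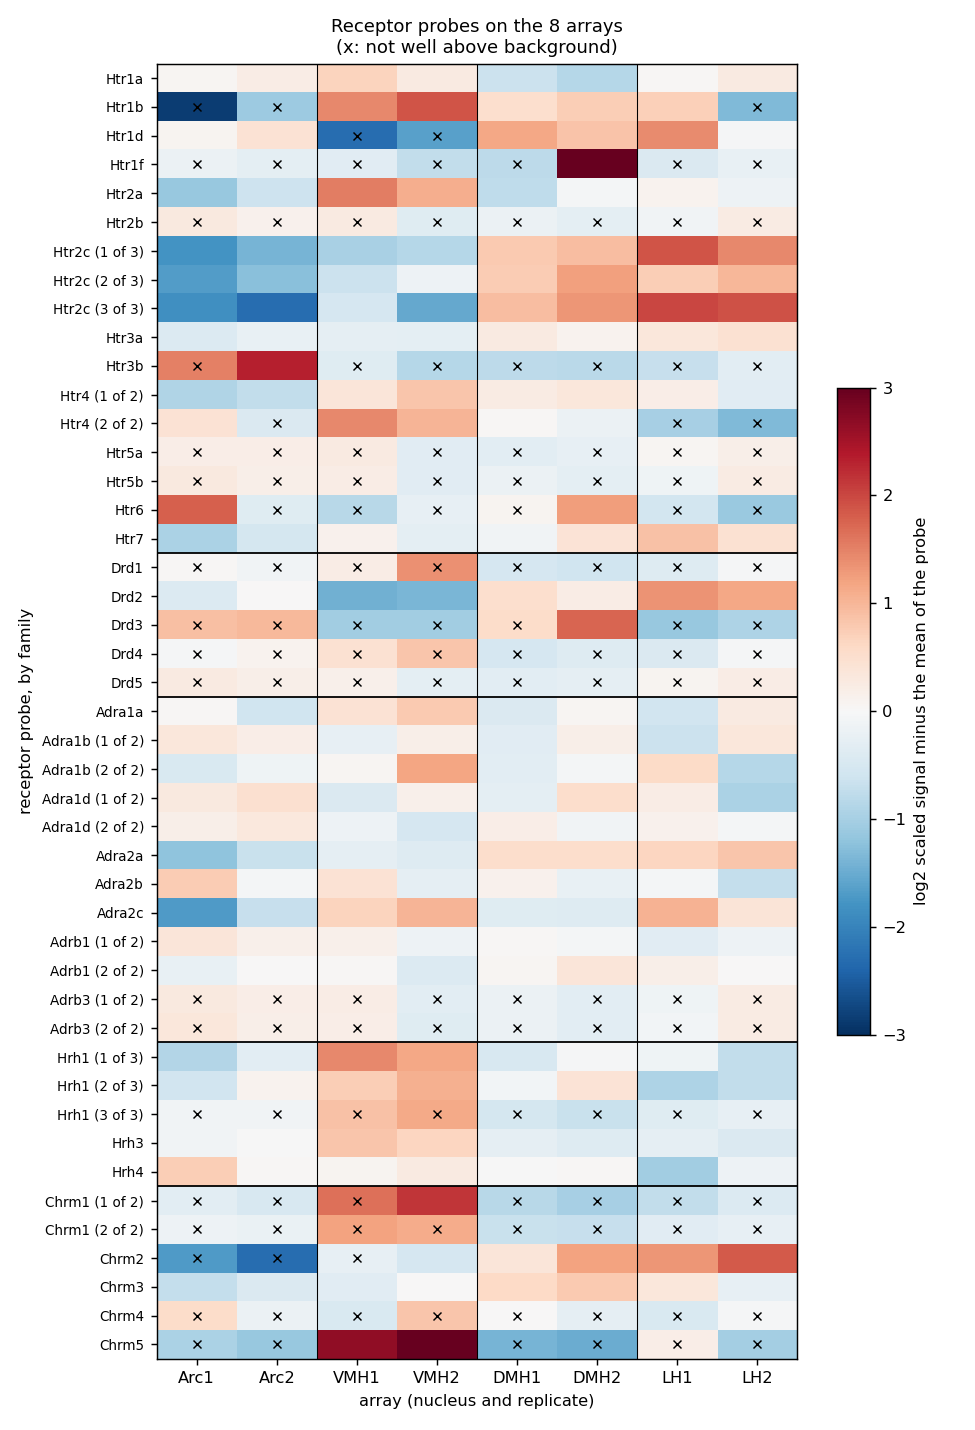
All 45 receptor probes (rows, by family, probes of a gene from bright to dim) on the 8 arrays (columns). The color gives the log2 signal minus the mean of the probe, cut off at -3 and 3, and a cross marks an array on which the probe was not well above background. Red cells of *Htr2a*, *Hrh1*, *Hrh3* and *Chrm5* lie under the VMH and those of *Htr2c*, *Drd2*, *Adra2a* and *Chrm2* under the LH and the DMH.

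Serotonin receptors made up the largest family. Of their 17 probes, 11 (8 genes) were tested and 6 (4 genes) passed the F-test. In at least 1 pair of nuclei 10 probes (7 genes) passed, for which the share of all probes was not counted. *Htr2c*, a Gq-coupled receptor known to restrain feeding, was low in the Arc and the VMH and high in the DMH and the LH on all 3 of its probes. Its brightest probe (A_55_P2158921) gave signals of 574 and 759 in the Arc, 1007 and 1089.8 in the VMH, 3441 and 3763 in the DMH and 7317 and 5378 in the LH. Each nucleus had both arrays clear of those of the others. The LH was above the Arc 9.50-fold (log2 difference 3.25, SE 0.24, limma adjusted p = 0.00137) and above the VMH 5.99-fold (log2 difference 2.58, SE 0.24, limma adjusted p = 0.00354). The DMH was above the Arc 5.45-fold (log2 difference 2.45, SE 0.24, limma adjusted p = 0.00754) and above the VMH 3.44-fold (log2 difference 1.78, SE 0.24, limma adjusted p = 0.017). The difference between the DMH and the LH did not pass (log2 difference of the DMH minus the LH -0.80, SE 0.24, limma adjusted p = 0.207). No single array ended the differences of the LH, whereas that of DMH and Arc was lost without Arc1, DMH1 or DMH2 (adjusted p = 0.0564 to 0.0721) and that of DMH and VMH without any VMH or DMH array (adjusted p = 0.0957 to 0.13).

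The other *Htr2c* probes gave the same low and high nuclei but not the same order at the top. The probe A_55_P1977503 read 319 and 233 in the Arc, 805 and 392 in the VMH, 2149 and 2862 in the DMH and 4531 and 4285 in the LH. On A_55_P2068461 the signals were 409 and 551 in the Arc, 828 and 1173 in the VMH, 2207 and 3085 in the DMH and 2175 and 2587 in the LH. Like the brightest probe, the first had both LH arrays above the DMH arrays, while the second overlapped between the DMH and the LH. The LH exceeded the Arc 16.2-fold (log2 difference 4.02, SE 0.37, limma adjusted p = 0.00219) on A_55_P1977503 and 5.0-fold (log2 difference 2.32, SE 0.29, limma adjusted p = 0.00522) on A_55_P2068461, and both differences held whichever array was left out. The DMH exceeded the Arc 9.11-fold (log2 difference 3.19, SE 0.37, limma adjusted p = 0.0121) and 5.50-fold (log2 difference 2.46, SE 0.29, limma adjusted p = 0.0126) in the same order of probes, and both were lost without any Arc or DMH array (adjusted p = 0.0705 to 0.114) and (adjusted p = 0.0571 to 0.104). Against the VMH, A_55_P1977503 was higher in the LH 7.85-fold (log2 difference 2.97, SE 0.37, limma adjusted p = 0.00826) and in the DMH 4.42-fold (log2 difference 2.14, SE 0.37, limma adjusted p = 0.0382), the latter lost without 5 of the arrays (both of the Arc, VMH2 and both of the DMH) (adjusted p = 0.0811 to 0.221). No difference between the VMH and another nucleus passed on A_55_P2068461. *Htr2c* is also a gene of the choroid plexus, so 8 of that tissue's genes were read beside it. They summed to 3519 and 2889 in the LH and to 4108 to 6984 elsewhere, 3 of 8 differed, *Kcnj13* and *Aqp1* were well above background on no array, and *Ttr* gave 209 and 251 in the Arc and 56.7 and 59.7 in the LH, where it was not well above background. Their part in the *Htr2c* signal was not tested.

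*Htr2a* (probe A_66_P120995), the Gq-coupled receptor on which many psychedelics act, was highest in the VMH. It gave 2613 and 1904 in the VMH, 404 and 579 in the Arc, 527 and 861 in the DMH and 971 and 812 in the LH. Both VMH arrays lay above every other array, and the lowest signals were on the Arc and DMH arrays, which overlapped. The difference between the VMH and the Arc passed 4.61-fold (log2 difference 2.20, SE 0.33, limma adjusted p = 0.012), and those between the VMH and the other nuclei did not. It was lost without either Arc array or either VMH array (adjusted p = 0.0501 to 0.0956). The remaining gene of this subfamily, *Htr2b*, was well above background nowhere, with signals of 18.8 to 29.3.

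The Gi-coupled receptors of the Htr1 group split. *Htr1a* (probe A_52_P612368), an autoreceptor of serotonin neurons that is also found on their targets, gave 1354 and 1496 in the Arc, 2043 and 1560.0 in the VMH, 823 and 717 in the DMH and 1313 and 1546 in the LH. It was lowest in the DMH and highest in the VMH, and the Arc and the LH overlapped. Its F-test did not pass (adjusted p = 0.0568), and the VMH exceeded the DMH 2.32-fold (log2 difference 1.22, SE 0.23, limma adjusted p = 0.0498), a difference that ended without any 1 of the Arc, VMH and DMH arrays (adjusted p = 0.113 to 0.279), without scaling between arrays (log2 difference 1.01, adjusted p = 0.208) and with the deposited table (adjusted p = 0.0515). *Htr1b* (probe A_52_P103998), a receptor of nerve endings that limits transmitter release, gave 779.7 and 1055 in the VMH, 405 and 477 in the DMH and 476 and 115 in the LH, the last not well above background. In the Arc it read 39.8 and 135, well above background on neither array. The LH arrays of *Htr1b* fell far apart, and only the VMH and the Arc could be told apart, with the VMH at least 7.78-fold (limma adjusted p = 0.0391), again lost without any Arc, VMH or DMH array (adjusted p = 0.0634 to 0.213). Its F-test did not pass (adjusted p = 0.0851).

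*Htr1d* (probe A_55_P2019428), a receptor of nerve endings like *Htr1b*, showed the opposite place for the VMH. Its signals were 166 and 212 in the Arc, 349 and 285 in the DMH and 419 and 154 in the LH. In the VMH they were 32.0 and 51.1 and not well above background. The VMH lay below every array of the other nuclei, and the LH arrays spanned those of the Arc and the DMH. The DMH was at least 3.03-fold (limma adjusted p = 0.0304) above the VMH, the LH at least 2.44-fold (limma adjusted p = 0.0268) and the Arc at least 1.80-fold (limma adjusted p = 0.0438). All 3 differences ended once signals below the dimmest measured probe of an array were raised to it (adjusted p = 0.138 for the DMH, 0.14 for the LH and 0.328 for the Arc), and without any 1 of the Arc, VMH and DMH arrays (adjusted p = 0.0555 to 0.247). *Htr1f* was well above background on DMH2 alone, at 256, against 18.6 on DMH1.

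*Htr4*, a Gs-coupled receptor, was measured by 2 probes that placed the low point differently. The brighter one (A_52_P581594) gave 728 and 816 in the Arc, 1725 and 2389 in the VMH, 1613 and 1718 in the DMH and 1545 and 1059 in the LH. It was lowest in the Arc, and the VMH, the DMH and the LH followed each other downward without overlap. The dimmer one (A_55_P1990400) gave 214 and 118 in the Arc, 433 and 321 in the VMH, 163 and 139 in the DMH and 79.2 and 62.8 in the LH, well above background throughout the VMH and the DMH and on Arc1. It was lowest in the LH. The brighter probe was higher in the VMH than in the Arc 2.63-fold (log2 difference 1.40, SE 0.27, limma adjusted p = 0.0298), which was lost without any Arc, VMH or DMH array (adjusted p = 0.0623 to 0.189) and without scaling (log2 difference of the Arc minus the VMH -1.67, adjusted p = 0.0669), and its F-test did not pass (adjusted p = 0.0607). The dimmer probe passed the F-test (adjusted p = 0.0241), with the VMH at least 3.65-fold (limma adjusted p = 0.0113) above the LH. That call was lost without VMH1 (adjusted p = 0.0898) and with the normexp background correction (log2 difference 0.71, adjusted p = 0.0542).

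*Htr7* (probe A_55_P2100103), also coupled to Gs and known for its part in the timing of the circadian clock, gave 439 and 586 in the Arc, 924 and 696 in the VMH, 792 and 1132 in the DMH and 1548 and 1170.2 in the LH. The order ran from the Arc up to the LH, with overlaps between the VMH and the DMH. Only the LH and the Arc differed 2.65-fold (log2 difference 1.41, SE 0.29, limma adjusted p = 0.0306), and this was lost without either Arc array, either VMH array or LH1 (adjusted p = 0.0517 to 0.191). The F-test did not pass for *Htr7* (adjusted p = 0.0915), nor for the channel subunit *Htr3a*, which was measured on all arrays at 327 to 597 (adjusted p = 0.119). *Htr3b*, its partner subunit, was well above background on Arc2 alone (167, and 94.3 on Arc1). *Htr6*, coupled to Gs, was well above background on Arc1 (223) and DMH2 (155) and on neither of their partners (50.5 and 68.2).

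**Figure D2:**
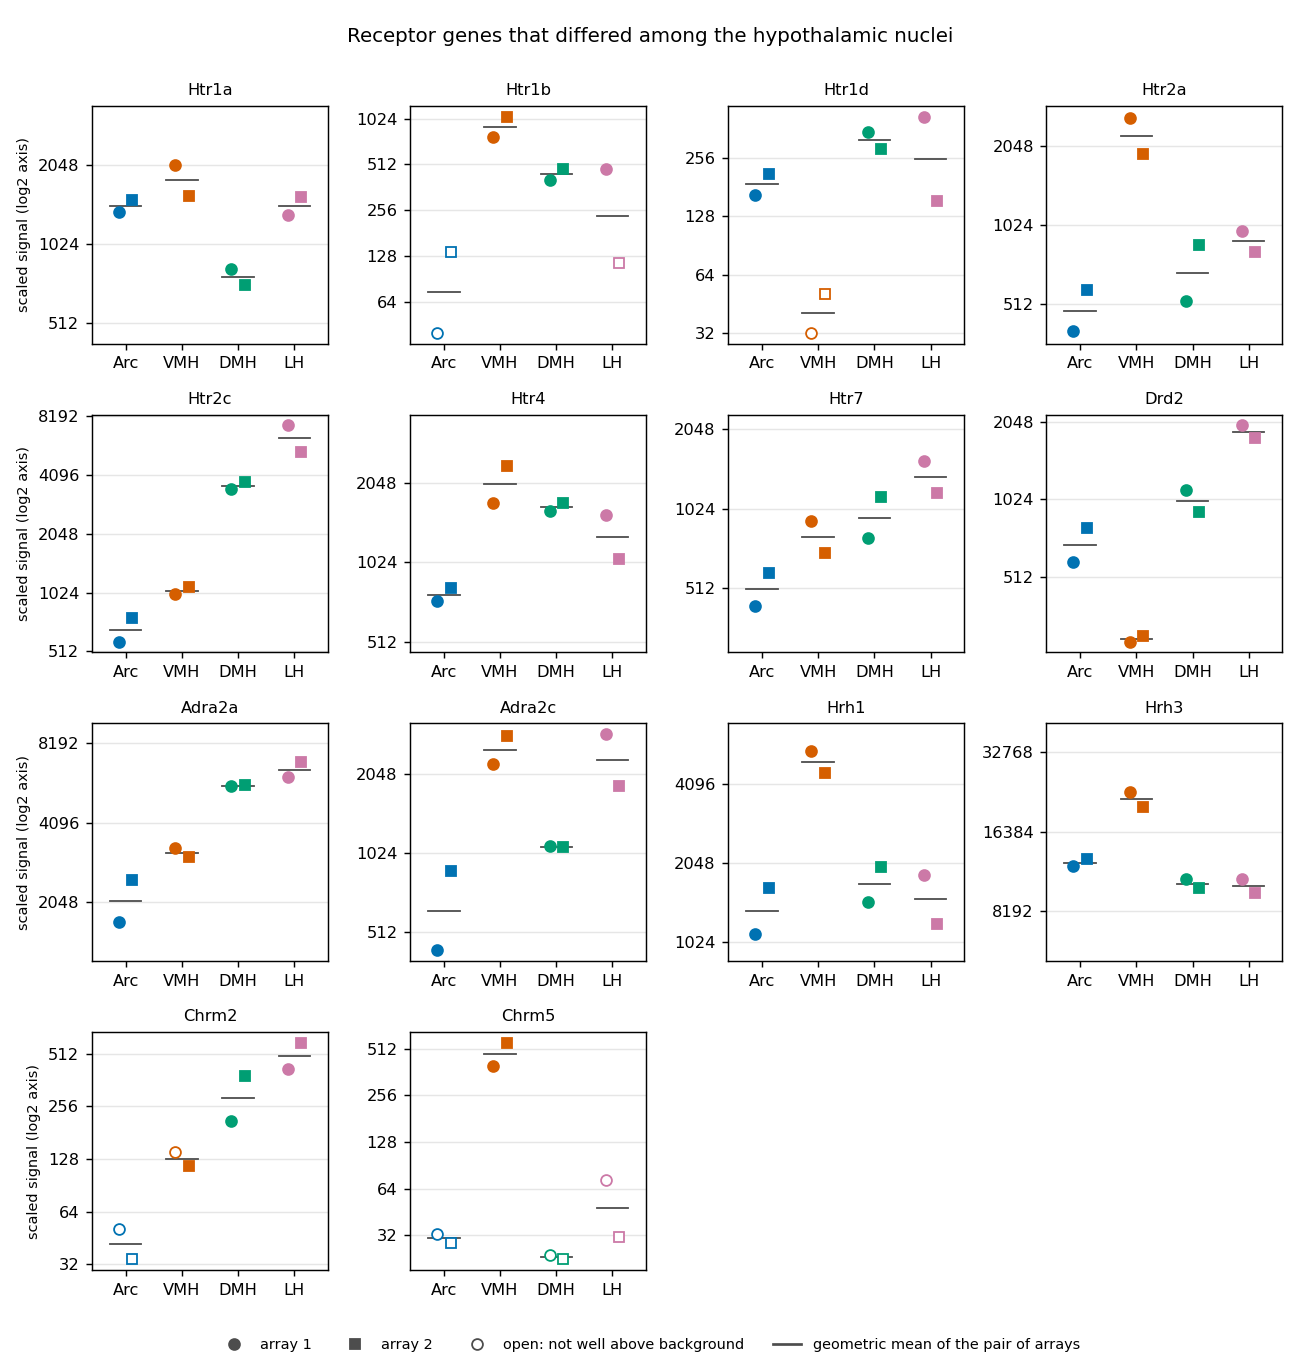
Scaled signals (log2 axis) of the 14 receptor genes that differed among the nuclei or between a pair of them, 1 point per array, each gene by its brightest probe. The line is the geometric mean of the arrays of a nucleus, and open points were not well above background. The VMH holds the highest points of *Htr2a*, *Hrh1*, *Hrh3* and *Chrm5* and the lowest of *Htr1d* and *Drd2*, and the LH the highest of *Htr2c*, *Drd2* and *Chrm2*.

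**Figure D3:**
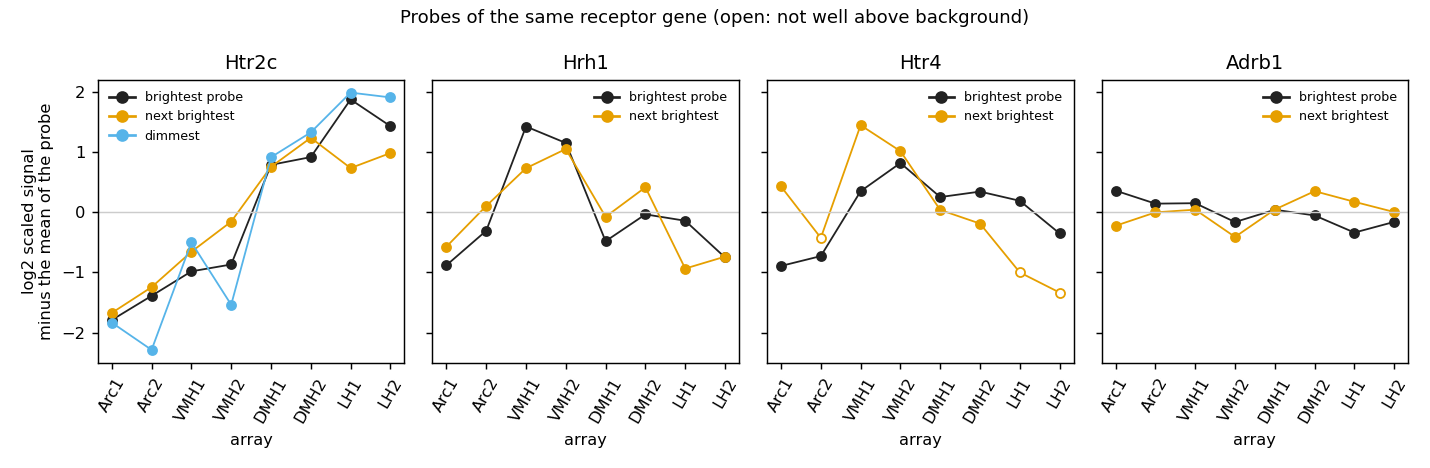
Log2 signals relative to the mean of each probe for 4 receptor genes measured by more than 1 probe, on the 8 arrays. The probes of *Htr2c* climb together from the Arc to the DMH and part in the LH, the second probe of *Htr4* falls in the LH where the first stays near its mean, and the probes of *Adrb1* stay within 0.5 of their means.

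Of the dopamine receptors, only *Drd2* passed the filter on dim probes. *Drd2* is Gi-coupled and serves both as autoreceptor of dopamine neurons and as a receptor on their targets. Its probe (A_52_P529650) was lowest in the VMH, with 288 and 303, followed by the Arc with 587 and 792, the DMH with 1118 and 914 and the LH with 1986 and 1767. No 2 nuclei overlapped. The LH exceeded the VMH 6.34-fold (log2 difference 2.67, SE 0.23, limma adjusted p = 0.00273), and that difference held without any single array (adjusted p = 0.00231 to 0.0276). The LH also exceeded the Arc 2.75-fold (log2 difference 1.46, SE 0.23, limma adjusted p = 0.0124), except without Arc1 (adjusted p = 0.0954). The VMH was below the DMH 3.42-fold (log2 difference 1.78, SE 0.23, limma adjusted p = 0.0139), which was lost without any VMH or DMH array (adjusted p = 0.0616 to 0.115). It was below the Arc 2.31-fold (log2 difference 1.21, SE 0.23, limma adjusted p = 0.0302), which was lost without any Arc, VMH or DMH array (adjusted p = 0.0555 to 0.173) and without scaling (log2 difference 0.94, adjusted p = 0.221). *Drd3*, a further Gi-coupled receptor, was well above background on DMH2 alone, at 177, with 98.2 and 103 in the Arc, 76.2 on DMH1 and 23.7 to 27.5 on the VMH and LH arrays. *Drd4* gave 22.7 to 57.4, and the Gs-coupled *Drd1* and *Drd5* gave 20.7 to 81.0 and 18.6 to 28.0.

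Among the adrenergic receptors, 10 of 12 probes (7 of 8 genes) were well above background on all 8 arrays, and the only ones to differ were the Gi-coupled *Adra2a* and *Adra2c*. *Adra2a* (probe A_55_P2021505), the main autoreceptor of noradrenaline neurons and a target of clonidine, gave 1709 and 2468 in the Arc, 3280.2 and 3024 in the VMH, 5629 and 5685 in the DMH and 6101 and 6940.5 in the LH. The order ran from the Arc up to the LH with no overlap. The LH exceeded the Arc 3.17-fold (log2 difference 1.66, SE 0.24, limma adjusted p = 0.00828), except without Arc1 (adjusted p = 0.0584). The DMH exceeded the Arc 2.75-fold (log2 difference 1.46, SE 0.24, limma adjusted p = 0.0403), which was lost without any Arc, VMH or DMH array (adjusted p = 0.0943 to 0.225). *Adra2c* (probe A_55_P1984487), a receptor known for its part at lower rates of nerve firing, gave 436 and 871 in the Arc, 2233 and 2852 in the VMH, 1086 and 1077 in the DMH and 2902 and 1849 in the LH. Its low nucleus was again the Arc, but its high nuclei were the VMH and the LH, which overlapped. The VMH exceeded the Arc 4.09-fold (log2 difference 2.03, SE 0.38, limma adjusted p = 0.0267), which was lost without Arc1 or any VMH or DMH array (adjusted p = 0.0574 to 0.134). The LH exceeded the Arc 3.76-fold (log2 difference 1.91, SE 0.38, limma adjusted p = 0.0252), which was lost without Arc1, LH1 or either DMH array (adjusted p = 0.052 to 0.129).

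The other adrenergic receptors were well measured without passing the test. *Adra1b*, coupled to Gq, gave 105728 and 95449 in the Arc, 69872 and 94866 in the VMH, 66503 and 93679 in the DMH and 53606 and 105647 in the LH (F-test adjusted p = 0.801). *Adra2b*, coupled to Gi, gave 49861 and 28478 in the Arc, 40209 and 24747 in the VMH, 32237 and 25284 in the DMH and 28424 and 18136 in the LH (F-test adjusted p = 0.572). Both Arc arrays of *Adra1b* lay above those of the VMH and the DMH, while the LH arrays spanned from the lowest of all arrays to nearly the highest. The nuclei of *Adra2b* overlapped but for the Arc and the LH. A dimmer probe of *Adra1b* gave 569 to 2349.6 (F-test adjusted p = 0.571). The Gq-coupled *Adra1a* ranged over 459 to 1196 (adjusted p = 0.361) and the 2 probes of *Adra1d* over 478 to 1335 and 115 to 204 (adjusted p = 0.622 and 0.383). *Adrb1*, a Gs-coupled receptor, gave 4777 to 7749.9 on a probe highest in the Arc and 499 to 845 on a probe highest in the DMH (adjusted p = 0.448 and 0.613). Both probes of *Adrb3*, known from fat tissue, stayed between 21.3 and 35.0, not well above background.

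Of the 3 histamine receptor genes measured, *Hrh1* and *Hrh3* passed the F-test, and both were highest in the VMH. *Hrh1* (probe A_55_P2045007), the Gq-coupled receptor behind the drowsiness that antihistamines bring, gave 5460.2 and 4516 in the VMH, 1101 and 1639 in the Arc, 1453 and 1981 in the DMH and 1840.3 and 1206 in the LH. The VMH arrays stood above all others, and the other 3 nuclei overlapped. The VMH exceeded the Arc 3.70-fold (log2 difference 1.89, SE 0.32, limma adjusted p = 0.0192), lost without any Arc or VMH array (adjusted p = 0.0618 to 0.136), and the LH 3.33-fold (log2 difference 1.74, SE 0.32, limma adjusted p = 0.0283), lost without any VMH or DMH array (adjusted p = 0.0509 to 0.168). A dimmer probe (A_66_P125883) gave 585 and 729.8 in the VMH, 236 and 378 in the Arc, 334 and 469 in the DMH and 184 and 211 in the LH. It too was highest in the VMH, while its lowest arrays were those of the LH. It missed the F-test (adjusted p = 0.0505) while its VMH exceeded the LH 3.32-fold (log2 difference 1.73, SE 0.30, limma adjusted p = 0.0247), lost without VMH1, VMH2 or LH1 (adjusted p = 0.0516 to 0.127) and without scaling (log2 difference 1.84, adjusted p = 0.0521). A last *Hrh1* probe was well above background nowhere (21.2 to 73.5), its higher signals being those of the VMH.

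*Hrh3*, the Gi-coupled autoreceptor of histamine neurons (probe A_51_P289107), gave 23205 and 20340.3 in the VMH, 12099 and 12915 in the Arc, 10793 and 10040.3 in the DMH and 10809.5 and 9612 in the LH. The VMH stood clear above the Arc, and the DMH and the LH overlapped below both. The VMH exceeded the LH 2.13-fold (log2 difference 1.09, SE 0.19, limma adjusted p = 0.0261) and the DMH 2.09-fold (log2 difference 1.06, SE 0.19, limma adjusted p = 0.0479). Both were lost without any 1 of the Arc, VMH and DMH arrays (adjusted p = 0.0563 to 0.156) and (adjusted p = 0.114 to 0.272) and without scaling (log2 differences 1.20 and 0.85, adjusted p = 0.0892 and 0.401). Quantile normalization kept the first and not the second (log2 difference 0.93, adjusted p = 0.0778). *Hrh4*, a Gi-coupled receptor known from immune cells, was well above background on all arrays at 1682 to 5812 and did not pass the test (F-test adjusted p = 0.318).

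Of the 6 muscarinic probes (5 genes), 3 (3 genes) were tested and 2 passed the F-test. *Chrm5*, a Gq-coupled receptor known from midbrain dopamine neurons, was the only receptor measured well above background in duplicate in 1 nucleus and on no array of the others. Its probe (A_55_P2055247) gave 397 and 557 in the VMH, against 32.6 and 28.6 in the Arc, 23.8 and 22.3 in the DMH and 72.9 and 31.2 in the LH. The VMH was at least 4.98-fold (limma adjusted p = 0.00389) above the DMH, at least 4.16-fold (limma adjusted p = 0.0034) above the Arc and at least 4.59-fold (limma adjusted p = 0.0078) above the LH. The last was lost without VMH2 (adjusted p = 0.0536). Since the probe entered the test through the VMH alone, it had to differ once it was tested, and the result is the signals themselves.

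*Chrm2*, a Gi-coupled receptor that also serves as autoreceptor of cholinergic nerve endings, ran the other way. Its probe (A_55_P2055284) gave 418 and 590.0 in the LH, 212 and 382 in the DMH, 141 and 117 in the VMH and 50.7 and 34.2 in the Arc. The LH and DMH arrays and VMH2 were well above background, and neither Arc array was. The probe entered the test through the LH and the DMH alone, so the filter favored its differences from the Arc. The LH was at least 4.39-fold (limma adjusted p = 0.00277) above the Arc, and that difference held without any single array (adjusted p = 0.00424 to 0.0268). The LH exceeded the VMH 3.87-fold (log2 difference 1.95, SE 0.36, limma adjusted p = 0.0286), lost without any Arc or VMH array or LH2 (adjusted p = 0.052 to 0.139). The DMH was at least 2.51-fold (limma adjusted p = 0.0174) above the Arc, lost without either Arc array or DMH2 (adjusted p = 0.0786 to 0.144), with the normexp correction (adjusted p = 0.0777) and once dim signals were raised (log2 difference of the Arc minus the DMH -1.33, adjusted p = 0.118). The VMH was at least 1.14-fold (limma adjusted p = 0.0473) above the Arc, and once dim signals were raised that difference shrank to -0.18 on the log2 scale for the Arc minus the VMH (adjusted p = 0.835). It was also lost without any Arc or VMH array (adjusted p = 0.127 to 0.247). *Chrm3*, coupled to Gq, was well above background on all arrays at 259 to 733 and missed the test (F-test adjusted p = 0.0954). *Chrm1*, also coupled to Gq, was well above background on VMH2 alone (184, and 130.3 on VMH1), with 20.8 to 33.2 on the arrays of the other nuclei. Its second probe gave its highest signals in the VMH too (76.2 and 71.3) without being well above background. *Chrm4* stayed at 35.0 to 85.3.

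By pairs of nuclei, more receptor probes passed as higher in the VMH, the DMH or the LH than in the Arc. Between the Arc and the VMH, 2 receptor probes were higher in the Arc (2.4% of all probes tested were) and 7 in the VMH (3.52% of all). These 7 were probes of *Htr1b*, *Htr2a*, *Htr4*, *Adra2c*, *Hrh1*, *Chrm2* and *Chrm5*, and the 2 were probes of *Htr1d* and *Drd2*. Without scaling, the split was 0 and 6, and with the slide row as a block 0 and 8. Between the Arc and the DMH, 0 were higher in the Arc (0.533% of all) and 5 in the DMH (0.727% of all), namely the 3 probes of *Htr2c* and those of *Adra2a* and *Chrm2*. Between the Arc and the LH, 0 were higher in the Arc (3.32% of all) and 8 in the LH (6.02% of all), those of *Htr2c* (3 probes), *Htr7*, *Drd2*, *Adra2a*, *Adra2c* and *Chrm2*. A probe of *Htr4* passed as higher in the Arc than in the LH with the slide row as a block, and one of *Hrh4* without LH2. As given above, 7 of 8 neuronal genes were also lowest in the Arc, and the LH was above the Arc for *Rbfox3* 2.33-fold (log2 difference 1.22, SE 0.25, limma adjusted p = 0.0275), *Nefl* 3.99-fold (log2 difference 2.00, SE 0.32, limma adjusted p = 0.0123) and *Syt1* 2.35-fold (log2 difference 1.23, SE 0.23, limma adjusted p = 0.0211). By the brightest probe of each gene, all 8 oligodendrocyte genes, 5 of 8 astrocyte genes and 6 of 8 endothelial genes were highest in the LH, and all 8 oligodendrocyte genes lowest in the Arc, while a dimmer probe of *Mbp* was higher in the Arc than in the LH 2.39-fold (log2 difference 1.26, SE 0.29, limma adjusted p = 0.0408). The part of all these genes in these differences was not tested. At an unadjusted limma p below 0.05, 1 probe was higher in the Arc than in the DMH (4.47% of all) and 2 than in the LH (12.2% of all), against 11 higher in the DMH (6.31% of all) and 11 in the LH (14.2% of all). Without the filter on dim probes, *Htr3b* was also higher in the Arc than in the DMH. In that setting *Htr3b* and *Drd3* were higher in the Arc than in the VMH and the LH, and both *Chrm1* probes lower than in the VMH. Between the Arc and the VMH, *Drd2* and *Htr1d* were lost (limma adjusted p = 0.0652 and 0.0731). So were *Htr1b*, the brighter probe of *Htr4*, and *Chrm2*, all higher in the VMH (limma adjusted p = 0.0605, 0.0586 and 0.0843). *Adra2a* was lost between the Arc and the DMH, and *Htr7* between the Arc and the LH (limma adjusted p = 0.0742 and 0.0578). The Tukey-Kramer test is named in the methods in general and not for the arrays. By it, 9 probes differed between the Arc and the DMH (5.16% of all) and 9 between the Arc and the LH (13.1% of all) before adjustment. After adjustment 0 did (0.0139% and 0.104% of all). Of the 24 receptor probes on all 8 arrays, 1 was higher in the Arc than in the VMH (1.75% of all such probes) and 4 lower (3.32%), the DMH was above the Arc in 4 (0.469%) and the LH above the Arc in 7 (5.8%), and the Arc above the DMH or the LH in none (0.243% and 2.24%).

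The VMH was neither the high nor the low side as a whole. Against the DMH, 3 receptor probes were higher in the VMH (1.1% of all), those of *Htr1a*, *Hrh3* and *Chrm5*, and 4 in the DMH (0.945% of all), those of *Htr1d*, *Drd2* and *Htr2c* (2 probes). Without scaling, that split was 1 and 4, and with the slide row as a block 1 and 3, *Htr1a*, *Hrh3*, *Htr1d* and 1 probe of *Htr2c* being lost (adjusted p = 0.0809, 0.0727, 0.0523 and 0.0505) and another probe of *Htr2c* (A_55_P2068461) gained. Without the filter on dim probes, both probes of *Chrm1* passed as higher in the VMH than in the DMH and the LH. A probe of *Hrh1* passed as higher in the VMH than in the DMH. Against the DMH, *Htr1a*, *Hrh3* and the *Htr2c* probe A_55_P1977503 were lost (limma adjusted p = 0.107, 0.115 and 0.0634). Against the LH, *Hrh3*, the brightest *Hrh1* probe and *Chrm2* were lost (limma adjusted p = 0.0622, 0.052 and 0.0504). Against the LH, 5 were higher in the VMH (2.24% of all), those of *Htr4*, *Hrh1* (2 probes), *Hrh3* and *Chrm5*, and 5 in the LH (3.04% of all), those of *Htr1d*, *Htr2c* (2 probes), *Drd2* and *Chrm2*. *Chrm5*, which entered the test through the VMH alone, is included in these counts and in that against the Arc, and nothing is read from its part in them. Of the 24 probes on all 8 arrays, 2 were higher in the VMH than in the DMH (0.862% of all such probes) and 3 lower (0.566%), and 3 higher in the VMH than in the LH (1.57%) and 3 lower (2.54%). Between the DMH and the LH, 0 were higher in the DMH (0.26% of all) and 0 in the LH (0.664% of all) by limma, with 3 and 5 at an unadjusted p below 0.05 (6.9% and 8.6% of all). The same pair gave 2 by the Tukey-Kramer test before adjustment (6.79% of all) and 0 after (0% of all). Without LH2, only *Chrm5* differed by limma, a probe well above background on no DMH or LH array, so that nothing is read from it. The median log2 difference of the 29 receptor probes tested was -0.67 for the Arc minus the VMH, -0.40 for the Arc minus the DMH and -0.44 for the Arc minus the LH, against 0.01, 0.02 and 0.05 over all probes tested. For the VMH minus the DMH, the VMH minus the LH and the DMH minus the LH it was 0.04, 0.23 and 0.03, against 0.02, 0.02 and 0.01. These comparisons share arrays and are not independent of each other. Each slide row held 1 array of each nucleus, and all 39 receptor differences that passed had the same direction in both rows, as did 100% of the 7147 differences that passed among all probes, so that nothing is read from it.

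**Figure D4:**
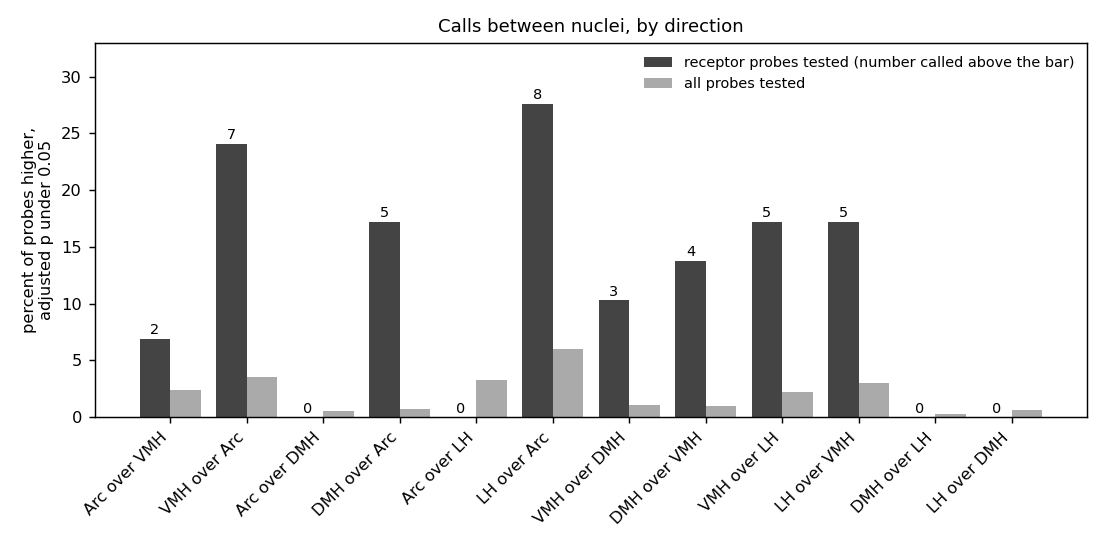
Percent of the 29 receptor probes tested (dark bars, with the number of probes) and of all 28894 probes tested (light bars) that were higher in the first than in the second nucleus of each label at a limma adjusted p under 0.05. The bars for the Arc over the DMH or the LH, and both bars for the DMH and the LH, stand at 0 for the receptors. The 3 bars of the VMH over another nucleus include *Chrm5*.

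The other genes of these pathways differed among the nuclei in 25 of 78 probes tested (20 of 59 genes, 32.1%, against the same 8.34% of all probes). They were 73 genes for transmitter handling, G proteins, effectors and regulators of the receptors, of which 59 passed the filter on dim probes. Genes for synthesis, storage, transport and breakdown of the transmitters differed in 10 of 24 probes (8 genes), and 8 of the 10 were highest in the Arc. RGS proteins, which shorten G protein signals, differed in 8 of 15 probes (6 genes), G protein alpha subunits in 2 of 14, adenylyl cyclases and phospholipases in 3 of 16, and receptor kinases, arrestins and partners in 2 of 9. The count of 25 was 14 without Arc1, 13 without Arc2 and 15 without VMH1.

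Of the genes of dopamine neurons, *Slc6a3*, *Th*, *Gch1* and *Slc18a2* were highest in the Arc, and *Ddc* was not on its brighter probe. *Slc6a3*, the dopamine transporter, gave 3264 and 3696 in the Arc, 42.8 and 46.7 in the VMH, 117 and 176 in the DMH and 91.6 and 69.3 in the LH, well above background outside the Arc on DMH2 only. The Arc was at least 33.4-fold (limma adjusted p = 0.000258) above the VMH and at least 31.6-fold (limma adjusted p = 0.000351) above the LH. Its probe entered the test through the Arc alone, so that a difference was fixed by the filter and the result is the signals. *Th*, the rate-limiting enzyme of catecholamine synthesis, gave 31311 and 34984 in the Arc, 3899.9 and 3242 in the VMH, 20687 and 23366 in the DMH and 13167 and 17263 in the LH. *Th* was lowest in the VMH, with the Arc above it 9.31-fold (log2 difference 3.22, SE 0.23, limma adjusted p = 0.000965), the DMH 6.18-fold (log2 difference 2.63, SE 0.23, limma adjusted p = 0.00327) and the LH 4.24-fold (log2 difference 2.08, SE 0.23, limma adjusted p = 0.00558). *Gch1*, which makes the cofactor of *Th*, and *Slc18a2*, the vesicular monoamine transporter, had the same high nucleus. *Gch1* gave 1834 and 1269 in the Arc and 25.7 and 39.2 in the VMH, the latter not well above background, with 220.2 and 329 in the DMH and 270.1 and 149.6 in the LH. *Slc18a2* gave 3524 and 4564 in the Arc, 715 and 595 in the VMH, 1983 and 2275 in the DMH and 747 and 729.9 in the LH. *Ddc*, which makes dopamine from its precursor and was added after its values were seen, gave 11246 and 14556 in the Arc, 15638 and 14764 in the VMH, 6975 and 15409.8 in the DMH and 7112 and 9376 in the LH on its brighter probe and did not pass (F-test adjusted p = 0.416). Its dimmer probe passed (F-test adjusted p = 0.0418), with the highest signals in the Arc (586 and 608) and the lowest in the LH (298 and 248).

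Of the genes that define the other transmitters, *Hdc* and *Pnmt* were well above background on all 8 arrays. *Hdc*, the enzyme that makes histamine, was highest in the DMH, with 3140.2 and 3889, against 180.2 and 479 in the Arc, 1340.4 and 1007 in the VMH and 1383 and 1093 in the LH. The DMH exceeded the Arc 11.9-fold (log2 difference 3.57, SE 0.45, limma adjusted p = 0.0164), lost without DMH1 or DMH2 (adjusted p = 0.0958 and 0.11). The LH exceeded it 4.19-fold (log2 difference 2.07, SE 0.45, limma adjusted p = 0.0341), lost without Arc1, LH1 or any VMH or DMH array (adjusted p = 0.0629 to 0.115). *Tph2*, the enzyme of serotonin synthesis in neurons, gave 72.5 to 184 on the 8 arrays and did not pass the test (F-test adjusted p = 0.926). *Pnmt*, which makes adrenaline, gave 367 to 754 and did not pass either (F-test adjusted p = 0.221). *Dbh*, which makes noradrenaline, was well above background on Arc2 alone (341), and *Chat*, which makes acetylcholine, and *Slc6a4*, the serotonin transporter, on no array.

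Of the signaling genes, *Rgs8* and *Rgs14* had the smallest p. *Rgs8* gave 263 and 348 in the Arc, 1789.7 and 1967 in the VMH, 2962 and 3829 in the DMH and 5427 and 4838 in the LH. It was lowest in the Arc, and the LH exceeded the Arc 16.9-fold (log2 difference 4.08, SE 0.24, limma adjusted p = 0.000581). *Rgs14* gave 1610.0 and 1594 in the VMH, 467 and 441 in the Arc, 396 and 301 in the DMH and 149.6 and 159 in the LH. It was highest in the VMH and exceeded the LH there 10.4-fold (log2 difference 3.38, SE 0.21, limma adjusted p = 0.000814). *Gnas*, the gene of the stimulatory alpha subunit and of overlapping transcripts, was highest in the Arc on its dimmest probe (742 and 574, against 28.5 and 18.2 in the VMH, not well above background) and in the LH on another (14802 and 14470.2, against 6669 and 6675 in the VMH), and its brightest probe did not pass the test (F-test adjusted p = 0.982).

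**Figure D5:**
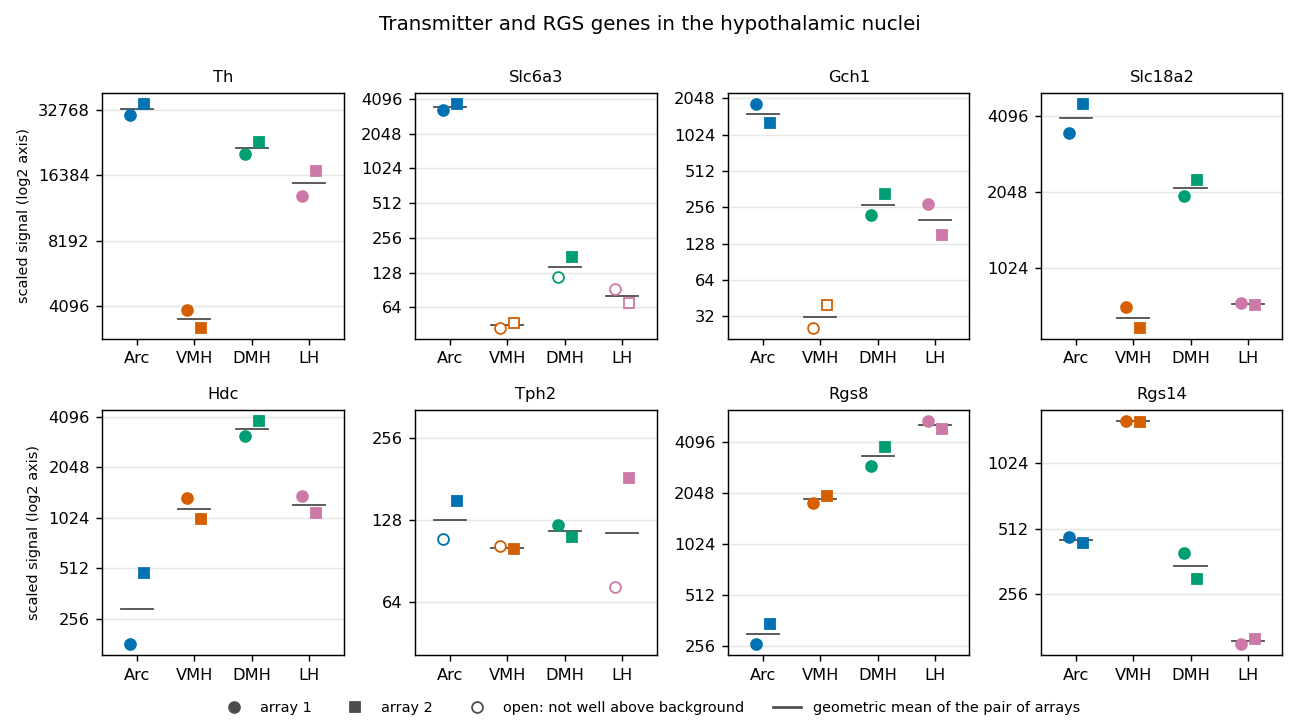
Scaled signals (log2 axis) of 8 genes of transmitter handling and receptor signaling, 1 point per array and the geometric mean of a nucleus as a line. Open points were not well above background. *Th*, *Slc6a3*, *Gch1* and *Slc18a2* are highest in the Arc and lowest in the VMH, *Hdc* is highest in the DMH, and the points of *Tph2* overlap between the Arc, the DMH and the LH.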

How the data were processed

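The samples were profiled on Agilent one-color mouse arrays, all on 1 slide. Per the labels and the methods, RNA was isolated from the excised tissue, amplified, and labeled chemically. Cy3 is entered as the dye in the labels, while the labeling protocol and the methods name Cy5, which the deposited red channel reads. The authors extracted an intensity for each spot with Agilent Feature Extraction (11.5.1.1 in the submitters' processing notes, 10.7.3.1 in the file headers). This deposited processed intensity is background-subtracted and not scaled between arrays. The deposited table holds the same intensity per probe.

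Spots marked as outliers were left out (none of the receptor probes had one), the rest were averaged per probe, signals were scaled so that the 75th percentile of every array equals the geometric mean of these percentiles, and log2 was taken. Before scaling, the 75th percentiles were 815 to 1239, and 47.1% to 52.7% of spots were well above background. The dimmest probe well above background had a scaled signal of 79.3 to 132, which bounds what could be measured, and no spot was saturated. The number of arrays limits the precision. One linear model with a mean per nucleus (limma 3.58.1 in R 4.3.3, 4 residual and 3.017 prior degrees of freedom) was fitted to the 28894 probes that were well above background in duplicate in 1 nucleus or more, with an F-test over the nuclei and a contrast for each of 6 pairs. Benjamini-Hochberg adjustment ran over all probes tested in each comparison, with a threshold of 0.05. The script was tested on simulated data. Where neither array of the lower nucleus was well above background, the fold is given as a bound, against the higher of the dim signal and the dimmest probe measured on each array.

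Probes were named through RefSeq accessions (26762 of 28390 probes with an accession, GRCm38.p6). The receptors, the pathway list and the marker lists were chosen with earlier results of these data known. Every receptor gene is named. All arrays are given for receptors that passed, for the 3 brightest, and for those measured in 1 nucleus only, and the others by their range, with single arrays where a receptor was well above background on a few. Pathway genes named are the 6 with the smallest F-test p and those that define a transmitter. The replicate number is also the slide row, and sample pairs of the same number deviated together with correlations of -0.0256 to 0.258, so the numbers were not taken to pair samples. Alternatives changed the scaling, the background correction, the table used, the filter on dim probes, the dim values, the block, the test and the arrays left out.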

Additional observations from a re-analysis of the deposited data

How the results depend on the processing

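None of the 39 receptor differences reversed under any alternative, and 30 were lost in at least 1 fit that left out 1 array. Not lost in any such fit was the LH over the Arc for all 3 *Htr2c* probes and *Chrm2*. The LH over the VMH for 2 *Htr2c* probes and *Drd2* was not lost either. Nor was the VMH over the Arc and the DMH for *Chrm5*. That probe entered the test through the VMH alone, so that its passing supports nothing. The *Chrm2* probe entered through the LH and the DMH alone, so the filter favored its difference from the Arc. Leaving out 1 array gave 6 to 17 receptor probes by the F-test (13 with all arrays), 1 to 9 for the Arc and the VMH (9), 0 to 6 for the Arc and the DMH (5), 4 to 11 for the Arc and the LH (8), 1 to 9 for the VMH and the DMH (7), 4 to 10 for the VMH and the LH (10), and 0 to 1 for the DMH and the LH (0). The pathway probes gave 13 to 28 (25).

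Quantile normalization and the deposited table each kept 38 of the 39 differences, normexp 35, dim signals raised to the dimmest measured 34, no scaling 31, and no filter on dim probes, with more probes to adjust over, 26. The counts of both directions together stayed within 1.5 times those reported under these settings, but counts by direction moved further. Beside the splits given above, those higher in the VMH than in the LH came to 3 without scaling (5 with it). With normexp or with dim signals raised, 5 were higher in the VMH than in the DMH (3 as reported, *Hrh1* and *Htr2a* being added) and 1 in the Arc than in the VMH (2 as reported). Genes taken by their brightest probe gave 10 genes by the F-test. The median difference of all probes came to -0.46 to 0.33 on the log2 scale between nuclei without scaling, and to -0.23 to 0.29 without the filter. The replicate block, which is also the slide row, kept 30 of the 39 and gave 4 receptor probes for the VMH and the DMH, and no other count left its range. Beside the 4 losses given for that pair, it ended the differences of the Arc and the VMH for *Htr1b*, *Htr1d*, *Drd2* and *Chrm2* (adjusted p = 0.0502 to 0.0694) and that of the Arc and the DMH for *Adra2a* (adjusted p = 0.0595). The cause of these changes was not tested.

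The methods name one-way and Tukey-Kramer tests in general, and for the arrays a cut on ratios of signals instead. On the same values and unadjusted, the Tukey-Kramer test gave 9 receptor probes for the Arc and the DMH. It gave 12 for the VMH and the DMH (5.84% of all probes) and 2 for the DMH and the LH. The one-way test gave 43 pathway probes (21.8% of all probes). After Benjamini-Hochberg adjustment they gave 2 receptor probes by the one-way test (1.84% of all), 0 for each pair of nuclei (0% to 0.104% of all), and 11 pathway probes. With 2 arrays per nucleus, a difference in a probe near the dimmest measured signal is known only as a bound.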

Other observations

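The following genes of the pathway list passed the F-test and were chosen for description after their values were seen. *Slc18a3*, the vesicular acetylcholine transporter, gave 1649.7 and 1703 in the Arc and 332 and 787 in the LH, and was well above background on no VMH or DMH array, while *Chat*, of the same cholinergic locus, was well above background on no array. The Arc was at least 16.1-fold (limma adjusted p = 0.00237) above the VMH. *Bche*, an enzyme that breaks down acetylcholine, ran the other way, with 695 and 1729.9 in the LH and 31.6 and 41.3 in the Arc, where it was not well above background. The LH was at least 9.69-fold (limma adjusted p = 0.00832) above the Arc, lost without Arc1 or Arc2 (adjusted p = 0.0696 and 0.0518). Its LH arrays lay far apart.

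Several effectors and regulators were lowest in the Arc or the VMH. *Plcb1*, a phospholipase C driven by Gq, gave 1287 and 1155 in the Arc, 4974 and 3879.6 in the VMH, 2982 and 2934 in the DMH and 4038 and 4522 in the LH. *Arrb1*, an arrestin that ends receptor signaling, gave 10951 and 12141 in the Arc, against 29511 and 27956 in the VMH, 23600.4 and 23403 in the DMH and 34989 and 31479.5 in the LH. Both genes were thus lowest in the Arc. *Adcy7*, an adenylyl cyclase, gave 555 and 495 in the Arc and 429 and 333 in the VMH, against 1474 and 1815 in the DMH and 1407 and 1728 in the LH. *Rgs10* had the same pair of high nuclei, with 4057 and 4602 in the DMH and 5859.5 and 6578 in the LH, against 1658 and 1982 in the Arc and 1479 and 1402 in the VMH. *Rgs9*, known from dopamine targets in the striatum, went the opposite way on its brightest probe, from 11059.5 and 10713 in the Arc and 9968 and 7988 in the VMH to 5825 and 5068 in the DMH and 3932 and 4141 in the LH. S100a10, a partner that carries *Htr1b* to the cell surface, was lowest in the VMH, with 741 and 636, against 3047 and 2883 in the LH, while *Htr1b* itself was highest in the VMH. By their brightest probes, all 8 oligodendrocyte genes were highest in the LH and lowest in the Arc, as given above, and their part in the signals of these genes was not tested.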
